A study of Homo sapiens with 12 samples.

Results

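The collagens and the lysyl oxidases, the enzymes that cross-link collagen outside the cell, were described on 12 arrays of RNA from A673, a human Ewing sarcoma cell line in which EWSR1 is fused to FLI1, a transcription factor of the ETS family. Members were the genes whose symbol has the form COL, number, A, number, together with LOX and LOXL1 to LOXL4, each measured by a probe set with a single gene symbol, and by the probe set with the highest mean where a gene had several. This rule gave 48 of the 18404 genes tested, 43 collagens and 5 lysyl oxidases, and it used no difference between groups. The set was chosen with earlier results of these data known, however, so its shares are descriptions. Each of 6 groups had 2 arrays. Untreated cells were taken at time 0. Cells in DMSO, in 5 nM actinomycin D and in 50 nM actinomycin D were harvested after 24 h. Cells infected with virus for FLI1 shRNA, or for lacZ shRNA against a bacterial gene, are labelled 48 h, whereas the labels' protocol describes 24 h with the virus and then 48 h under puromycin. All 12 arrays hold A673 RNA, so the fusion is present in the controls too, and no second Ewing line was measured. The series' design text speaks of duplicate experiments but does not say whether these were separate cultures, so p-values measure only the spread between these arrays.

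Collagens are secreted as triple helices. Fibrillar collagens form the banded fibrils of connective tissue, type IV collagens form the network of basement membranes, type VI collagens form beaded filaments around cells, and the FACIT collagens sit on the surface of fibrils. Lysyl oxidase and its relatives oxidize lysines so that fibrils become cross-linked. Actinomycin D is a DNA-binding drug that blocks transcription, and in the study it was tested as a compound that displaces the fusion protein from DNA.

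Values are log2 signals, so that a difference of 1 is a factor of 2. A gene is said to rise or fall where its adjusted p in limma, over all 18404 genes, lies under 0.05. Errors are standard errors of the fitted difference (SE), with 2 arrays in each group. After the authors' normalization the array medians lay between 6.67 and 6.83. The 2 arrays of a group correlated at 0.9949 to 0.998 over all genes, and arrays of different groups at 0.9463 to 0.9975. FLI1, the targeted gene, gave 7.30 and 7.08 on the FLI1 shRNA arrays and 8.63 and 8.45 on the lacZ arrays, and fell by 1.35 ± 0.09 log2 units (adjusted p = 5.4e-06 by limma). The Ewing sarcoma markers CD99, STEAP1, PRKCB and NKX2-2 had mean log2 signals of 12.11, 11.14, 11.49 and 9.83 in DMSO. Of the markers of other cells, the 4 of blood and the 5 of endothelium lay below the median signal of all genes, with 3.67 for PTPRC and 5.14 for VWF in DMSO, as did 4 of the 5 of epithelium, with 5.03 for EPCAM. Of the 6 fibroblast markers THY1 and PDGFRB were bright, at 10.94 and 9.11, and DCN, FAP, PDGFRA and LUM were dim, at 5.98, 5.67, 5.11 and 3.52. RNA came from whole cultures, so fewer cells with a transcript and less of it per cell cannot be told apart.

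The members spanned nearly the whole range of signal. Of the 48, 16 had a mean log2 signal over 7.45, which is the median of all genes. LOXL1 was at the 95.9th percentile of all genes, COL1A2 at the 79.5th, COL4A2 at the 74th, COL1A1 at the 68.5th and COL6A1 at the 63.5th. COL6A5 was the lowest member, at the 1.7th percentile. These percentiles rank probe sets, whose affinities differ, and are not levels per transcript length. COL11A2 was the only member with more than 1 probe set, and COL1A2 is also named in a row with a further gene symbol, which was not used.

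Some members are neighbours that start close together. In the RefSeq annotation of GRCh38.p14, COL4A1 and COL4A2 lie head to head on opposite strands of chromosome 13, and the 126 bases between their annotated starts, chr13:110307158-110307283, are shown on the strand of COL4A2 because the transcripts that start at either end of them are compared below. The stretch holds 80.2% G or C, and the capitals mark CCAAT, the only match to that motif on either strand.
COL4A1/COL4A2: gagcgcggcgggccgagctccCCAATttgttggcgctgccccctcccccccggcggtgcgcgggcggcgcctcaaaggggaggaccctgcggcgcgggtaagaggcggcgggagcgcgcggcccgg

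Of the 48 members, 35 had an entry in the RefSeq promoter table, and their 250 bases before the start were searched on both strands for GGAA, GGAAGGAA and CCAAT. The core GGAA, which ETS factors recognize, was in 31 of the 35 windows, or 88.6%, against 92.8% of 27305 promoters. Its doubled form GGAAGGAA was in 0 of the 35 and in 2.99% of all, and CCAAT was in 8, or 22.9%, against 33% of all. CCAAT can share its CC with the reverse of GGAA, and every GGAAGGAA also counts as GGAA. The windows of COL4A1 and COL4A2 both hold the 126 bases shown above, so the CCAAT there was counted for each gene. The windows of COL4A3 and COL4A4, and of COL4A5 and COL4A6, also overlap. A window without these letters says nothing of sites elsewhere. COL1A1, COL1A2, COL2A1, COL3A1, COL5A2, COL6A1, COL6A5, COL8A1, COL9A3, COL14A1, COL20A1, COL22A1 and LOXL2 had no entry.

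The first comparison, of FLI1 shRNA with lacZ shRNA, asks which genes change when FLI1 RNA is lowered. The study's methods name a single shRNA against FLI1, so effects of that shRNA on other transcripts cannot be told apart. Of the 48 members 13 rose and 1 fell, or 27.1% and 2.08%, where 14.6% of all genes rose and 9.28% fell. LOX, COL3A1, COL1A2 and LOXL2 rose by over 2-fold with an adjusted p under 0.01, as did 1.21% of all genes. The rises were in fibrillar collagens, in COL4A1, COL6A1, COL6A3 and COL12A1, and in 3 of the 5 lysyl oxidases, while the median change of the 48 was -0.05 against -0.01 for all genes. Of the 16 members above the median signal 9 rose and 0 fell in limma, with 0 lower at an unadjusted p under 0.05, where 20.8% of all genes above it rose and 14% fell. LOX is among the 9, although its lacZ shRNA mean of 7.43 lay below that median. The arrays of the groups did not overlap in 24 of the 48, where they did not in 63.1% of all genes. No direction of a called member flipped under another scaling.

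Of the 11 fibrillar collagens 6 rose. COL3A1, the chain of type III collagen, gave 9.50 and 9.35 on the FLI1 shRNA arrays and 7.55 and 7.73 on the lacZ arrays, and rose by 1.78 ± 0.09, or 3.44-fold (adjusted p = 1e-06 by limma). COL1A2, a chain of type I collagen, gave 10.55 and 10.42 against 9.22 and 9.20, and rose by 1.27 ± 0.07, or 2.42-fold. In both genes the FLI1 shRNA arrays lay above the other 10 arrays. COL1A1, the other chain of type I collagen, gave 9.21 and 9.25 against 8.54 and 8.67, and rose by 0.63 ± 0.09 (adjusted p = 5.5e-04). COL5A2 and COL5A1 make type V collagen, which is built into type I fibrils. COL5A2 gave 8.57 and 8.48 against 7.71 and 7.67, a rise of 0.83 ± 0.07, and COL5A1 gave 8.42 and 8.51 against 7.76 and 7.89, a rise of 0.64 ± 0.08. COL11A1 gave 6.07 and 6.05 against 5.54 and 5.84, and its rise of 0.37 ± 0.12 had an adjusted p of 0.049 in limma, which passed the threshold only narrowly. COL2A1, COL5A3, COL11A2, COL24A1 and COL27A1 were not called, with changes of -0.16 to 0.04. COL2A1 of cartilage gave 6.87 and 6.80 against 6.75 and 6.95, so its groups overlapped.

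Among the 9 network-forming collagens COL4A1 was the only one called. COL4A1 gave 8.02 on both FLI1 shRNA arrays and 7.60 and 7.66 on the lacZ arrays, and rose by 0.39 ± 0.06 (adjusted p = 0.0013). COL4A2, whose product joins that of COL4A1 in the commonest type IV molecule, gave 9.21 and 9.15 against 8.94 and 9.0. Its change of 0.21 did not pass, with an adjusted p of 0.097 in limma, although its arrays did not overlap. COL4A3 gave 5.75 and 5.42 against 5.64 and 5.77, and COL4A4 gave 5.63 and 5.49 against 5.72 and 5.83, with changes of -0.12 and -0.21. COL4A5 gave 5.24 and 5.08 against 5.19 and 5.31, and COL4A6 gave 5.33 and 5.22 against 5.31 and 5.59, with changes of -0.09 and -0.17. None of these 4 dim chains was called.

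In the 5 beaded filament collagens COL6A1 and COL6A3 rose. COL6A3 was dim, with 6.61 and 6.46 against 5.88 and 6.03, and rose by 0.58 ± 0.08. COL6A1 gave 8.61 and 8.56 against 8.05 and 8.17, and rose by 0.48 ± 0.08 (adjusted p = 0.0013). COL6A2, which lies next to COL6A1 on chromosome 21 and encodes a further chain of the same molecule, gave 8.17 and 7.96 against 7.86 and 8.18. Its change was 0.05, with a 95% interval of -0.21 to 0.31, and its arrays overlapped. Of the 10 FACIT collagens COL12A1 alone was called, with 7.89 and 7.86 against 7.40 and 7.34, a rise of 0.50 ± 0.07. The 3 transmembrane collagens changed by -0.21 to -0.11 and the 2 multiplexins, COL15A1 and COL18A1, by -0.20 to -0.17, and none was called. COL28A1 gave 5.24 and 5.27 against 5.57 and 5.56 and fell by 0.31 ± 0.09 (adjusted p = 0.025), a call that was lost whichever of the 4 arrays was left out.

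The lysyl oxidases divided. LOX gave 9.74 and 9.86 on the FLI1 shRNA arrays and 7.53 and 7.32 on the lacZ arrays, and rose by 2.37 ± 0.11, or 5.19-fold (adjusted p = 6.3e-07 by limma), more than any other member. LOXL2 gave 8.14 and 8.19 against 6.96 and 6.93, and rose by 1.22 ± 0.09, or 2.33-fold. LOXL1, which is known for its part in elastic fibres and was the brightest member, gave 11.45 on both FLI1 shRNA arrays against 10.98 and 10.99, and rose by 0.47 ± 0.08. LOXL3 gave 6.46 and 6.49 against 6.46 and 6.45, a change of 0.02. LOXL4 gave 6.37 and 6.40 against 6.32 and 6.46, a change of -0.01, and neither of these genes was called.

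**Figure D1:**
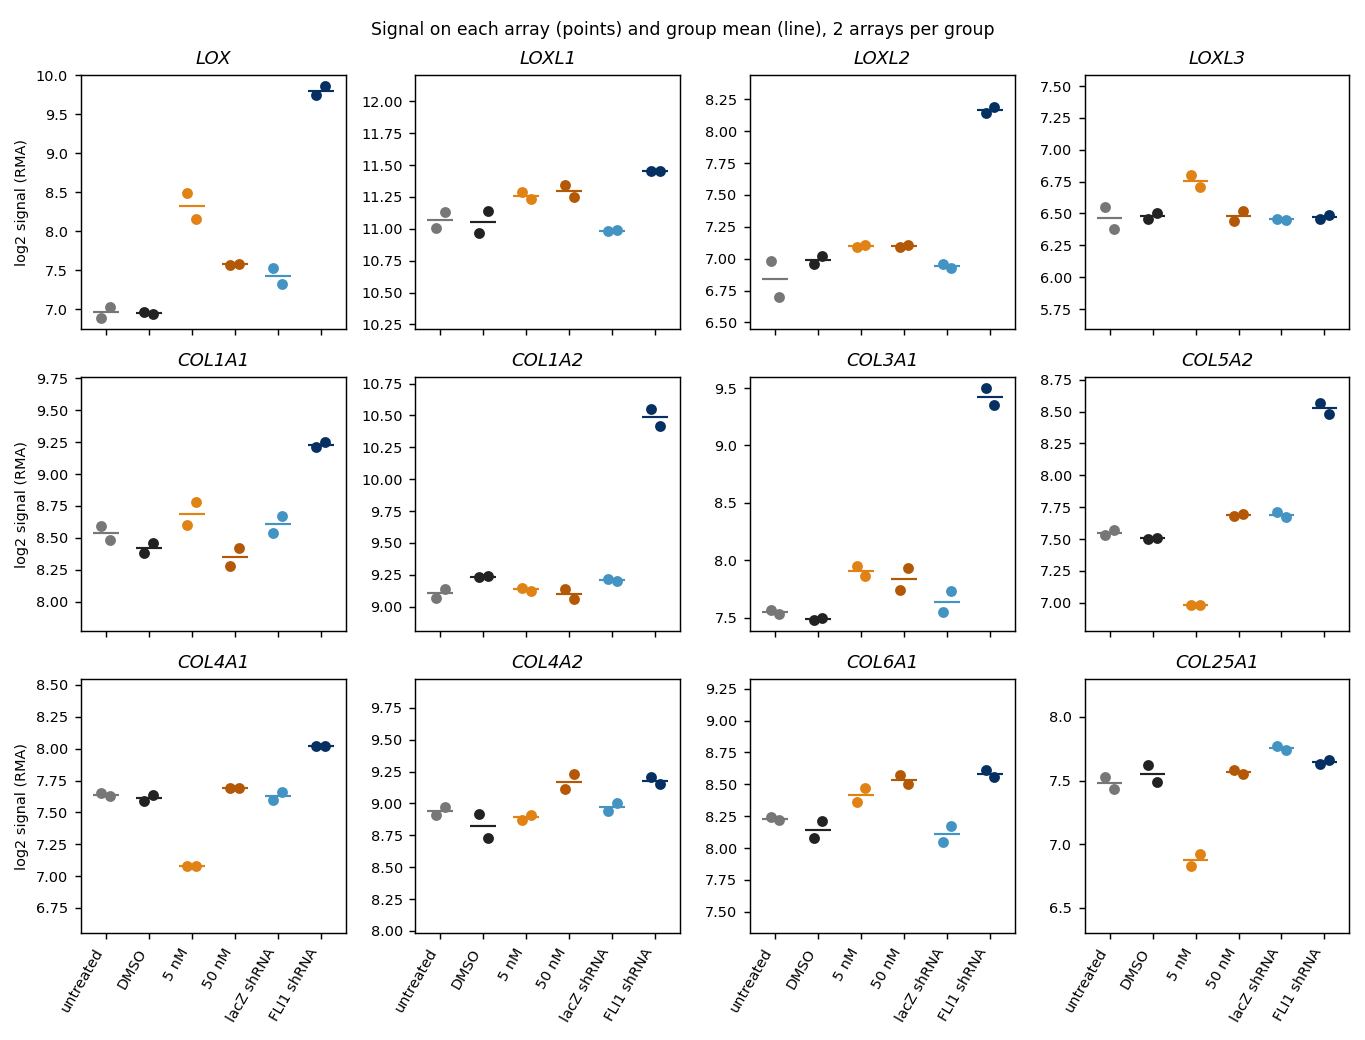
Log2 signal of 12 members on each array (points, 2 per group) with the group mean (line); the groups are untreated, DMSO, 5 nM and 50 nM actinomycin D, lacZ shRNA and FLI1 shRNA, and each panel has its own axis over at least 2 log2 units. LOX was highest with FLI1 shRNA at 9.74 and 9.86 and next at 5 nM at 8.49 and 8.16, whereas COL5A2, COL4A1 and COL25A1 were lowest at 5 nM.

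The second comparison, of 5 nM actinomycin D with DMSO, asks what a low dose of the drug does. Of the 48 members 9 rose and 4 fell, or 18.8% and 8.33%, where 30.3% of all genes rose and 23% fell, but with centring on 57 ribosomal protein genes 1 member rose and 15 fell, where 9.22% of all genes rose and 44.3% fell. Those ribosomal protein genes were higher by a mean of 0.35 at 5 nM and of 0.26 at 50 nM, so this centring moved the median of all genes from 0.12 to -0.23 at 5 nM and from 0.10 to -0.16 at 50 nM. Over all genes it moved the split at 5 nM from 5581 higher and 4234 lower to 1696 and 8153. The median change of the members was 0.16 as deposited and -0.19 after the centring. Of the 16 members above the median signal 6 rose and 3 fell as deposited, where 35.2% of all genes above it rose and 37.7% fell, and arrays did not overlap in 34 of the 48 members, where they did not in 75.4% of all genes. LOX and COL9A2 are among the 6, although their DMSO means of 6.96 and 7.42 lay below the median signal. Under every alternative tried 4 members kept their call: LOX rose, and COL25A1, COL4A1 and COL5A2 fell.

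LOX gave 8.49 and 8.16 at 5 nM and 6.97 and 6.94 in DMSO, and rose by 1.37 ± 0.11, or 2.58-fold (adjusted p = 2e-06 by limma). It was the only member past 2-fold with an adjusted p under 0.01, where 2.64% of all genes rose and 7.86% fell by as much, and its change was 1.02 after the centring. COL25A1, a transmembrane collagen, gave 6.83 and 6.92 against 7.62 and 7.49, and fell by 0.68 ± 0.07 (adjusted p = 1.8e-05). COL4A1 gave 7.08 on both 5 nM arrays against 7.59 and 7.64, and fell by 0.54 ± 0.06. COL5A2 gave 6.98 on both 5 nM arrays against 7.50 and 7.51, and fell by 0.52 ± 0.07. In each of these 3 genes the 5 nM arrays lay below the other 10 arrays. COL21A1, a FACIT collagen, gave 7.21 and 7.25 against 7.44 and 7.50, and fell by 0.24 ± 0.07.

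The other rises at 5 nM were small and all were lost with the centring. COL3A1 gave 7.95 and 7.86 against 7.48 and 7.50, and rose by 0.41 ± 0.09 (adjusted p = 0.0031 by limma), against 0.06 after the centring. COL6A2 gave 8.05 and 8.17 against 7.72 and 7.80, a change of 0.35 ± 0.12 that became -0.01. COL6A1 gave 8.36 and 8.47 against 8.08 and 8.21, a change of 0.27 ± 0.08 that became -0.08. LOXL4 gave 6.67 and 6.64 against 6.33 and 6.37, a change of 0.31 ± 0.09 that became -0.04, and LOXL3 gave 6.80 and 6.71 against 6.46 and 6.50, a change of 0.27 ± 0.08 that became -0.08. COL9A2 gave 7.59 and 7.82 against 7.35 and 7.49, a change of 0.28 ± 0.11 that became -0.07. COL1A1 and COL4A5 were the remaining calls, with 0.27 and 0.26 as deposited and -0.08 and -0.09 after the centring. COL4A5 gave 5.29 and 5.37 against 5.03 and 5.11, and COL1A1 8.60 and 8.78 against 8.38 and 8.46. Without DMSO replicate 1, or without 5 nM replicate 2, fewer members and fewer of all genes were called higher. The median change of the members was then 0.10 and 0.13, against 0.10 and 0.09 for all genes. In the 8 that rose beside LOX, DMSO replicate 1 was the lower of the DMSO arrays, and in 5 of them 5 nM replicate 2 was the higher of the 5 nM arrays.

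Several members that rose with FLI1 shRNA were not called at 5 nM as deposited, but with ribosomal protein centring 5 of the 6 described here were called lower. COL1A2 gave 9.15 and 9.12 against 9.23 and 9.24, a change of -0.10 with a 95% interval of -0.26 to 0.06. LOXL2 gave 7.09 and 7.11 against 6.96 and 7.02, a change of 0.11 with an interval of -0.09 to 0.30. LOXL1 gave 11.29 and 11.23 against 10.97 and 11.14, a change of 0.20 whose adjusted p in limma was 0.055. COL5A1 changed by -0.19, COL12A1 by -0.11 and COL6A3 by -0.08. After the centring the changes were -0.45 in COL1A2, -0.54 in COL5A1, -0.46 in COL12A1, -0.44 in COL6A3 and -0.25 in LOXL2, all called lower, and -0.15 in LOXL1, which was not called.

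The neighbours named above did not all move alike at 5 nM. COL4A2 gave 8.87 and 8.91 at 5 nM against 8.92 and 8.73 in DMSO, a change of 0.06 with a 95% interval of -0.12 to 0.25, whereas the interval of COL4A1 was -0.68 to -0.39. Relative to the ribosomal protein genes COL4A2 changed by -0.29 and COL4A1 by -0.89. COL3A1 and COL5A2 lie 19.2 kb apart on chromosome 2 with no protein-coding gene between, and COL3A1 had an interval of 0.21 to 0.62 where COL5A2 had -0.67 to -0.38. COL4A3 gave 5.74 and 5.97 against 5.52 and 5.71, and COL4A4 5.84 and 5.73 against 5.59 and 5.72, and neither was called. COL4A6 gave 5.59 and 5.45 against 5.30 and 5.46, with a change of 0.14 beside the 0.26 of COL4A5. The difference between the genes of a pair was not tested.

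**Figure D2:**
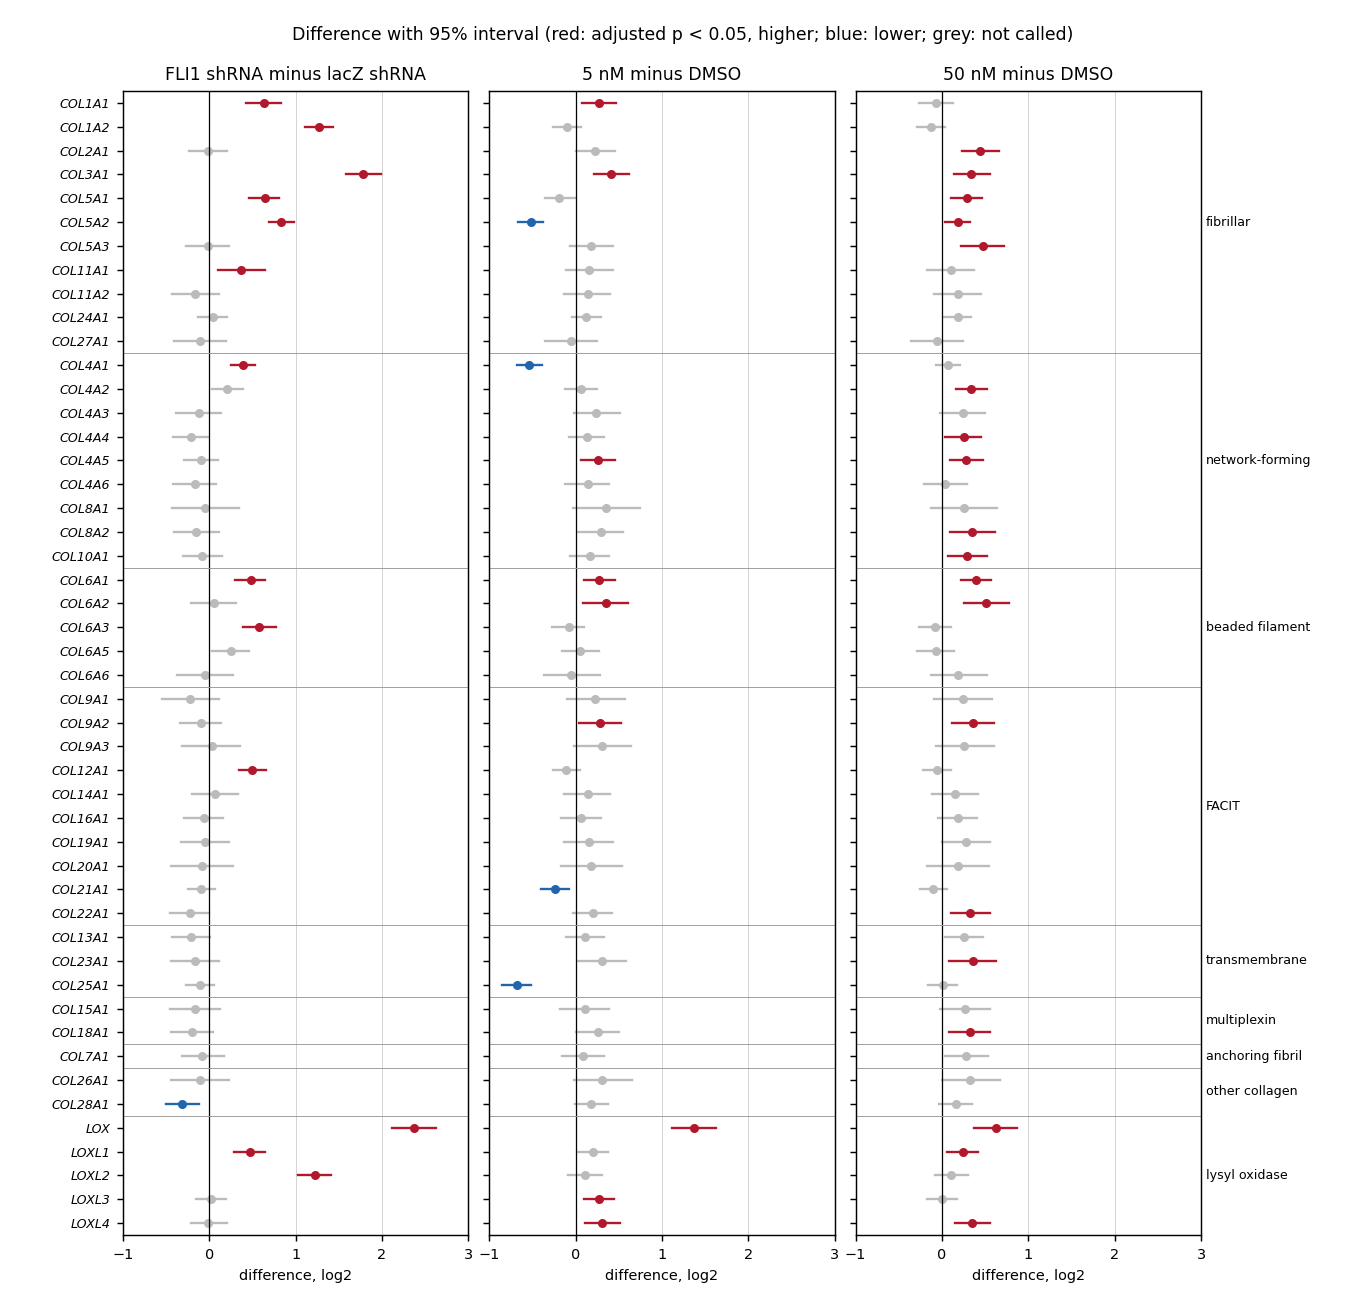
Difference in log2 signal (points) with its 95% interval (bars) for all 48 members, grouped by class, in 3 comparisons of 2 arrays with 2; red marks members higher with an adjusted p under 0.05, blue lower ones and grey those not called. With FLI1 shRNA 13 were higher and 1 lower, at 5 nM 9 and 4, and at 50 nM 19 and 0; with ribosomal protein centring the counts became 1 and 15 at 5 nM and 1 and 9 at 50 nM.

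At 50 nM, against the same DMSO arrays, 19 of the 48 members rose and 0 fell, or 39.6% and 0%, where 25.8% of all genes rose and 23.3% fell, but with ribosomal protein centring 1 member, LOX, rose and 9 fell, where 5.31% of all genes rose and 38% fell. At an unadjusted p under 0.05 in limma 22 members were higher and 0 lower, and with quantile normalization applied again 1 was called lower. The median change of the members was 0.24 against 0.10 for all genes, and became -0.01 against -0.16 with the centring. No change reached 2-fold with an adjusted p under 0.01, where 0.598% of all genes rose and 5.38% fell by as much. Of the 16 members above the median signal 11 rose as deposited, where 26% of all genes above it rose and 38.3% fell, and arrays did not overlap in 39 of the 48 members, where they did not in 77.4% of all genes. LOX, COL9A2 and COL23A1 are among the 11, although their DMSO means of 6.96, 7.42 and 7.39 lay below the median signal.

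LOX gave 7.57 and 7.58 at 50 nM, above both DMSO arrays, and rose by 0.62 ± 0.11 (adjusted p = 0.0012 by limma), with 0.36 after the centring. COL6A2 gave 8.28 and 8.25 and rose by 0.51 ± 0.12, COL5A3 gave 7.49 and 7.60 against 6.98 and 7.17 and rose by 0.47 ± 0.11, and COL2A1 gave 7.16 and 7.36 against 6.81 and 6.82 and rose by 0.44 ± 0.10. COL6A1 gave 8.57 and 8.50 and rose by 0.39 ± 0.08, and COL9A2 gave 7.77 and 7.79 and rose by 0.36 ± 0.11. These 6 were named from members whose arrays did not overlap, so by that choice their arrays at 50 nM lay above both DMSO arrays. The other rises were of 0.19 to 0.36, in COL3A1, COL5A1, COL5A2, COL4A2, COL4A4, COL4A5, COL8A2, COL10A1, COL22A1, COL23A1, COL18A1, LOXL1 and LOXL4, and 4 of the 19 calls, LOX, COL2A1, COL6A1 and COL6A2, were kept with each array left out. Without DMSO replicate 1, or without 50 nM replicate 2, fewer members and fewer of all genes were called higher. The median change of the members was then 0.19 and 0.18, against 0.08 and 0.09 for all genes.

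Of the 4 members that fell at 5 nM, none was called lower at 50 nM as deposited. COL4A1 gave 7.69 on both 50 nM arrays, a change of 0.07 with an interval of -0.07 to 0.21, COL25A1 gave 7.58 and 7.55, a change of 0.01, and COL5A2 gave 7.68 and 7.70, a rise of 0.19 ± 0.07. COL21A1 gave 7.34 and 7.40, below both DMSO arrays, a change of -0.10 with an interval of -0.26 to 0.06. After the centring these changes were -0.18 in COL4A1, -0.25 in COL25A1, -0.07 in COL5A2 and -0.36 in COL21A1, and all but that of COL5A2 were called lower. COL4A2 gave 9.11 and 9.23 and rose by 0.34 ± 0.08. COL3A1 gave 7.74 and 7.93 and rose by 0.34 ± 0.09. COL1A1 gave 8.28 and 8.42 and COL1A2 9.14 and 9.06, with changes of -0.07 and -0.13 that were not called. COL4A3 gave 5.84 and 5.87, COL4A4 5.81 and 6.0, COL4A5 5.37 and 5.34 and COL4A6 5.34 and 5.50. LOXL1 gave 11.34 and 11.25, LOXL2 7.09 and 7.11, LOXL3 6.44 and 6.52 and LOXL4 6.60 and 6.80. Of these lysyl oxidases LOXL1 and LOXL4 rose, by 0.24 and 0.35 as deposited, whereas relative to the ribosomal protein genes they changed by -0.01 and 0.10, and neither was called.

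In the direct contrast of doses 5 members were higher at 50 nM than at 5 nM and 3 were lower, or 10.4% and 6.25%, where 21.6% of all genes were higher and 23.1% lower. These values share arrays with both comparisons against DMSO. COL5A2 was higher by 0.71 ± 0.07, COL25A1 by 0.69 ± 0.07, COL4A1 by 0.61 ± 0.06, COL5A1 by 0.47 ± 0.08 and COL4A2 by 0.28 ± 0.08. LOX was lower at 50 nM by 0.75 ± 0.11 (adjusted p = 2.1e-04 by limma), COL1A1 by 0.34 and LOXL3 by 0.27. All of these but COL4A2, COL1A1 and LOXL3 kept their call under every alternative tried, and with ribosomal protein centring 8 members were higher and 1 lower, where 28.5% of all genes were higher and 19.4% lower.

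Whether the drug changed the same members as FLI1 shRNA was asked of the difference between the responses, FLI1 shRNA against lacZ shRNA minus 5 nM against DMSO, which share no array. The response to FLI1 shRNA was higher in 11 members and lower in 6, or 22.9% and 12.5%, where 22.8% of all genes were higher and 23.7% lower, and with ribosomal protein centring it was higher in 18 members and lower in 0, where 38.6% of all genes were higher and 7.07% lower. The difference was 1.37 ± 0.10 in COL1A2, 1.37 ± 0.13 in COL3A1, 1.35 ± 0.09 in COL5A2, 1.11 ± 0.12 in LOXL2 and 1.00 ± 0.16 in LOX (adjusted p = 4.3e-04 by limma). These 5 passed 2-fold with an adjusted p under 0.01, as did 9.75% of all genes on the higher side. COL4A1 at 0.92, COL5A1 at 0.82, COL6A3 at 0.66, COL12A1 at 0.61, COL25A1 at 0.58 and COL1A1 at 0.35 were also called. The first 5 of these kept the call under every alternative that fitted them, and COL6A3 was not fitted with dim genes left out. LOX rose under both treatments, and its rise was larger with FLI1 shRNA. COL5A2 and COL4A1 rose with FLI1 shRNA and fell at 5 nM. On the lower side were COL28A1 at -0.49, COL23A1 at -0.47, COL18A1 at -0.46, COL8A2 at -0.44, COL22A1 at -0.42 and COL4A5 at -0.35. Apart from COL28A1, which members were called lower depended on single arrays. With ribosomal protein centring the difference in COL28A1 was -0.13 and was not called. The median difference of the members was -0.29 without lacZ shRNA replicate 1 and -0.08 without lacZ shRNA replicate 2, against -0.13 and -0.10 for all genes. The groups also differ in virus, puromycin and hours, each against its own control. FLI1 itself changed by -0.08 at 5 nM as deposited, not called, and by -0.44 after the centring, called lower. At 50 nM FLI1 changed by -0.95 ± 0.09, or -1.20 after the centring, and was called lower both ways. EWSR1 changed by -0.29 with FLI1 shRNA, -0.30 at 5 nM and 0.20 at 50 nM, and by -0.28, -0.65 and -0.06 after the centring.

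**Figure D3:**
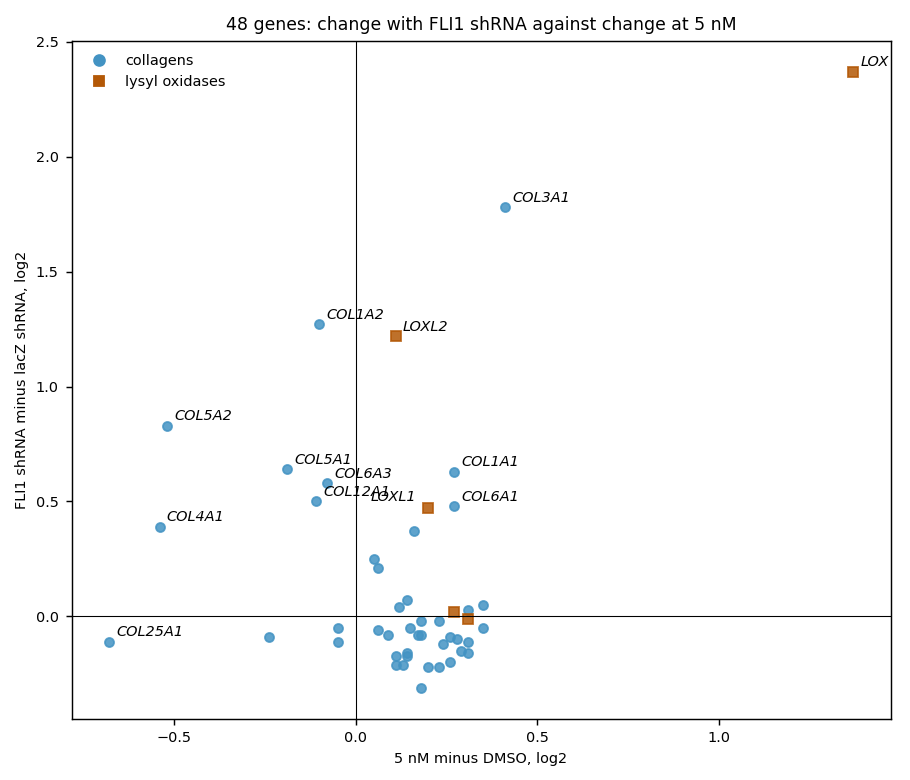
Change of each of the 48 members with FLI1 shRNA against lacZ shRNA (vertical axis, log2) and at 5 nM actinomycin D against DMSO (horizontal axis, log2), as deposited; circles are collagens and squares lysyl oxidases, and members past 0.45 or 0.4 in size on the vertical or horizontal axis are named. LOX lies at 2.37 and 1.37, while COL5A2 and COL4A1 lie above 0 on the vertical axis and below 0 on the horizontal axis, as they also do with ribosomal protein centring.

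The control treatments moved no member past the threshold. DMSO against untreated cells gave 0 calls in limma, with 1 member at an unadjusted p under 0.05 and changes of -0.18 to 0.16, and 0.00543% of all genes were called higher and 0% lower. In lacZ shRNA against untreated cells 0 members were called, with 3 at an unadjusted p under 0.05, where 0.815% of all genes were higher and 2.26% lower. LOX was nearest, with 7.53 and 7.32 against 6.89 and 7.03 in untreated cells. Its difference of 0.47 had an adjusted p of 0.054 in limma, and under the alternatives that p ran from 0.018 to 0.27. The lacZ arrays thus lay above the untreated arrays in the member that rose most with FLI1 shRNA.

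The members are long genes. Their median span in the annotation was 124 kb, from 15.1 kb for LOX to 494 kb for COL25A1, against 27.2 kb in 16849 other protein-coding genes. At 5 nM the change fell with span in the other genes, from a median of 0.26 in the bin with a median span of 9.96 kb to -0.51 in the bin of the longest genes, with a Spearman correlation across genes of -0.52. Over the 48 members the correlation was -0.45, and over the 16 above the median signal -0.63, against -0.70 for other genes of that signal. LOX, the shortest of the 16, was among them only through its drug and FLI1 shRNA arrays. COL9A2 and COL23A1 were also among them, with means below the median signal in DMSO, at 7.42 and 7.39. At 5 nM their means were 7.70 and 7.69. The -0.63 thus includes genes that their own drug arrays helped to admit, and is not independent of the change it describes. These correlations are descriptions across genes that share the same arrays. The 3 members that kept their fall at 5 nM had spans of 158 kb (COL4A1), 409 kb (COL5A2) and 494 kb (COL25A1), whereas COL1A1 and COL3A1 span 17.5 and 38.4 kb. Of the 24 members below the members' median span 8 rose and 0 fell at 5 nM, where 34.1% of other protein-coding genes below it rose and 19.2% fell, but with ribosomal protein centring 1 member rose and 5 fell, where 10.6% and 40.7% did. Of the 24 above it 1 rose and 4 fell, where 5.18% of other genes above it rose and 57.8% fell, and with the centring 0 rose and 10 fell, where 0.594% and 78% did. COL4A2, at 206 kb, changed by 0.06, above the medians of -0.45 and -0.51 of the bins of longest genes. With FLI1 shRNA the correlation with span was -0.27 in the members and 0.13 in other genes, and at 50 nM -0.26 and -0.29. The part of span in these changes was not tested.

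**Figure D4:**
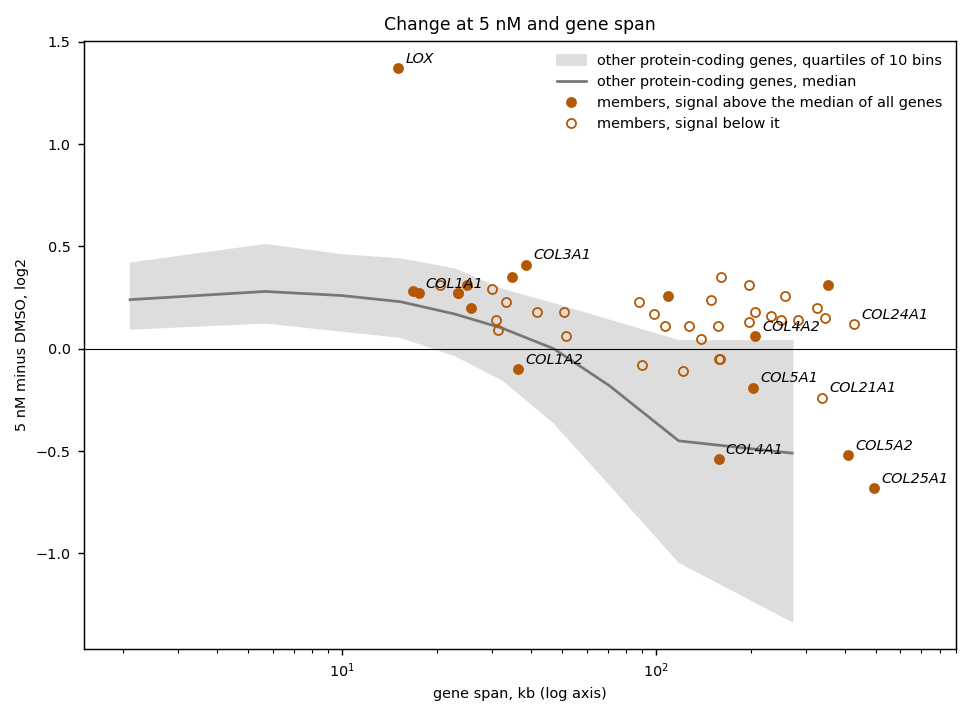
Change at 5 nM against DMSO (log2, as deposited) and gene span in kb (log axis) for the 48 members (filled: mean signal above the median of all genes; open: below it), over the median (line) and quartiles (grey band) of 16849 other protein-coding genes in 10 bins of span. The median of the other genes declined from 0.26 near 10 kb to -0.51 in the longest bin; LOX, the shortest member, lay at 1.37, and COL25A1, the longest, at -0.68.

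The genes that make, cut, bind and degrade collagen were counted from 5 lists. These lists were chosen with earlier results of these data known, so their shares are descriptions. Of all genes 14.6% rose with FLI1 shRNA and 9.28% fell. With FLI1 shRNA, 12 of 23 genes for collagen folding, hydroxylation and secretion rose and 0 fell in limma, with 2 lower at an unadjusted p under 0.05. Among them were CREB3L1, a transcription factor of secretory cells, at 1.82, P4HA2, a prolyl hydroxylase, at 0.98, and SEC24D, a coat protein of transport vesicles, at 0.96. Of 31 fibril-associated matrix proteins 15 rose and 2 fell, with POSTN at 1.99, FBN1, the fibrillin of microfibrils, at 1.56, and NID2 of basement membranes at 1.00. Of 11 collagen receptors 3 rose and 0 fell, with 0 lower at an unadjusted p under 0.05, and the 3 were CD44 at 1.61, ADGRG1 at 0.95 and DDR1 at 0.58. Of 18 collagen-degrading enzymes and their inhibitors 8 rose and 1 fell, with MMP14, a membrane-bound collagenase, at 0.87, CTSL at 0.81 and the inhibitor TIMP3 at -0.84. Of 10 genes for procollagen cleavage 0 rose in limma, with 2 higher at an unadjusted p under 0.05, and 1, the protease gene TLL1, fell by 0.66. The shares that rose were thus 52.2% for folding and secretion, 48.4% for matrix proteins, 44.4% for degrading enzymes and inhibitors, 27.3% for receptors and 0% for cleavage. Of the 19 folding and secretion genes above the median signal 11 rose, where 20.8% of all genes above it did.

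At 5 nM these lists moved in both directions, and in each of the 5 more genes rose than fell as deposited and more fell than rose with ribosomal protein centring, as was also the case over all genes. As deposited 47.8% of the folding and secretion genes, 41.9% of the matrix proteins, 45.5% of the receptors, 55.6% of the degrading enzymes and inhibitors and 30% of the cleavage genes rose, where 30.3% of all genes did. Of all genes 23% fell as deposited, and with the centring 9.22% rose and 44.3% fell. Of the 23 folding and secretion genes 11 rose and 6 fell, or 1 and 8 after the centring, with TMEM131 at -1.89, P3H2 at -1.26 and PLOD3, a lysyl hydroxylase, at 0.80. Of the 31 matrix proteins 13 rose and 7 fell, or 2 and 13 after it, with FBN1 at -1.15, OGN at 1.03 and PXDN, which cross-links type IV collagen, at -0.96. Of the 11 receptors 5 rose and 1 fell, or 0 and 4, with DDR2, a receptor for fibrillar collagen, at -1.59, ADGRG1 at 0.49 and CD44 at 0.45. Of the 18 degrading enzymes and inhibitors 10 rose and 2 fell, or 4 and 6, with CTSL at 1.45, MMP16 at -1.10 and MMP3 at 0.95. Of the 10 cleavage genes 3 rose and 1 fell, or 0 and 4, with TLL1 at -1.24, BMP1, which removes the C-terminal propeptide, at 0.56 and its enhancer PCOLCE at 0.37. FBN1 thus rose with FLI1 shRNA and fell at 5 nM, as COL5A2 and COL4A1 did.

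At 50 nM the counts were 8 rises and 4 falls for folding and secretion, 10 and 1 for matrix proteins, 5 and 0 for receptors, 8 and 1 for degrading enzymes and inhibitors, and 3 and 0 for cleavage, where 25.8% of all genes rose and 23.3% fell, and after the centring 3 and 8, 6 and 8, 1 and 2, 5 and 3, and 1 and 3, where 5.31% rose and 38% fell. The shares that rose as deposited ran from 30% for cleavage to 45.5% for receptors. SEC24D changed by -0.74, PLOD3 by 0.63 and FKBP10, a collagen chaperone, by 0.56. OGN changed by 0.71, EFEMP2 by 0.66, BGN by 0.65, CD44 by 0.47, GP6 by 0.45 and DDR1 by 0.40. TIMP4 changed by 0.94, MMP2, a gelatinase, by 0.85, CTSK by 0.61, PCOLCE by 0.58, ADAMTS2 by 0.41 and BMP1 by 0.35.

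Markers of Ewing sarcoma and of other cells were set beside these results, where 14.6% of all genes rose with FLI1 shRNA and 9.28% fell. Of the 4 Ewing sarcoma markers 3 fell with FLI1 shRNA, NKX2-2 by 1.35, STEAP1 by 1.00 and PRKCB by 0.70, and 0 rose in limma, with 0 higher at an unadjusted p under 0.05. The mean log2 signal of that list was 10.36 to 10.39 on the FLI1 shRNA arrays and 11.15 to 11.18 on the lacZ arrays. With FLI1 shRNA 1 of 6 fibroblast markers rose, PDGFRB by 1.08, and 0 fell in limma, with 1 lower at an unadjusted p under 0.05, and the mean log2 signal of the list was 6.80 to 6.84 on the FLI1 shRNA arrays and 6.55 to 6.64 on the lacZ arrays. LUM, DCN and PDGFRA changed by 0.04, 0.12 and 0.05 and were not called. Of 5 endothelial markers KDR rose by 1.85 and PECAM1 fell by 0.55, and the mean of the list was 5.80 to 5.83 against 5.51 to 5.66. VWF, CDH5 and TEK changed by -0.04, -0.07 and -0.01. Of 4 blood markers 0 were called, with 0 higher or lower at an unadjusted p under 0.05, and of 5 epithelial markers KRT19 fell by 0.37. On these arrays no signal is at 0, so a dim marker has no defined absence.

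Markers of other cells were also called with the drug. As deposited 30.3% of all genes rose and 23% fell at 5 nM, and 25.8% and 23.3% did at 50 nM. With ribosomal protein centring 9.22% of all genes rose and 44.3% fell at 5 nM, and 5.31% and 38% did at 50 nM. At 5 nM 2 of 6 fibroblast markers rose, THY1 by 0.69 and DCN by 0.41, and PDGFRB fell by 0.69, while 2 of 5 endothelial and 2 of 4 blood markers rose and none of either fell in limma, with 0 lower at an unadjusted p under 0.05. At 50 nM 3 of 4 blood markers rose, with a median change of 0.38 over the 4, as did 2 of 5 endothelial markers, PECAM1 and VWF, and 2 of 6 fibroblast markers, DCN by 0.52 and THY1 by 0.38, and 0 fell in limma in these 3 lists, with 0 lower at an unadjusted p under 0.05. With ribosomal protein centring 1 fibroblast marker rose and 1 fell at 5 nM, and in the endothelial and blood lists 0 rose and 1 fell in each. With it 1 fibroblast marker rose and 0 fell at 50 nM, 0 endothelial markers were called, and 0 blood markers rose and 1 fell. The mean log2 signal of the fibroblast list was 6.69 to 6.75 in DMSO, 6.84 to 6.88 at 5 nM and 6.94 to 6.96 at 50 nM, and that of the blood list was 4.81 to 5.04, 5.18 to 5.34 and 5.23 to 5.25. Of the Ewing sarcoma markers PRKCB fell at 5 nM by 0.80, and at 50 nM NKX2-2 fell by 2.21 and STEAP1 by 0.46 while CD99 and PRKCB rose by 0.24 and 0.19 as deposited, which became -0.01 and -0.07 with the centring. The part of these shifts in the changes of the collagens and lysyl oxidases was not tested.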

How the data were processed

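Total RNA of A673 cells (100 ng per array, per the labels) was measured on 12 Affymetrix HuGene 1.0 ST arrays, 2 in each of 6 groups taken from the labels. The deposited table holds log2 signals; the authors corrected the background and applied RMA with affy (version: not stated in the labels or the methods). No raw scan was used, and 0 columns lacked a sample.

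Of 32321 rows, 19158 have a single gene symbol in the platform table, 1388 several and 11775 none. Only the first were tested. For 637 genes with several probe sets the brightest stood for the gene, which left 18404 genes.

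A mean per group was fitted to all 12 arrays in limma 3.58.1 (R 4.3.3), with 6 residual and 4.45 prior degrees of freedom, and Benjamini-Hochberg adjustment of p-values in each of 7 comparisons. The stricter count used the study's thresholds, a fold over 2 and an adjusted p under 0.01. Intervals are 95% intervals of the fitted difference. The number of arrays limits the precision. Spans and the printed sequence come from RefSeq on GRCh38.p14 and served only to describe genes.

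Members and lists were chosen with earlier results of these data known. The text names every lysyl oxidase, the neighbouring COL4 and COL6 genes and COL3A1 with COL5A2, up to 6 rises and 6 falls per comparison among genes without overlap of arrays, and up to 3 genes per list. Alternatives were a replicate block, a fit of the compared arrays alone, removal of genes below the 40th percentile of signal, averaging of probe sets, use of all rows, a further quantile normalization, centring on 57 ribosomal protein genes, limma's trend and robust options, and removal of each array.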

Additional observations from a re-analysis of the deposited data

How the results depend on the processing

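The rises of 12 members with FLI1 shRNA, of LOX at both doses, and the falls of COL25A1, COL4A1 and COL5A2 at 5 nM passed the threshold under every alternative that kept the gene. So did 5 of the 8 calls between the doses and 10 of the 17 in the difference of responses. COL6A3, among the 12 and the 10, lay at the 24.4th percentile of signal and was not fitted with dim genes left out. The change of LOX ran from 2.27 to 2.48 with FLI1 shRNA, from 1.02 to 1.54 at 5 nM and from 0.36 to 0.70 at 50 nM. The other calls against DMSO were lost under at least 1 alternative. Of the 48 members 32 lay at or below the median signal of all genes, and the part of signal in the calls was not tested. The cause of the shifts below was not tested.

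With ribosomal protein centring 1 member rose and 15 fell at 5 nM, 1 of them by over 2-fold, 1 rose and 9 fell at 50 nM, 8 were higher and 1 lower at 50 nM than at 5 nM, the FLI1 shRNA response exceeded the 5 nM response in 18 members, 8 of them by over 2-fold, and was lower in 0, and 1 member was higher with lacZ shRNA than in untreated cells. Under it 35 members turned from above 0 to below it at 5 nM and 20 at 50 nM, and 22 from below 0 to above it in the difference of responses. Of these 12, 6 and 2 were called with or without the centring. At 5 nM they became -0.08 in COL1A1, -0.23 in COL24A1, -0.29 in COL4A2, -0.09 in COL4A5, -0.07 in COL9A2, -0.29 in COL16A1, -0.08 in COL6A1, -0.01 in COL6A2, -0.30 in COL6A5, -0.25 in LOXL2, -0.08 in LOXL3 and -0.04 in LOXL4. At 50 nM they became -0.07 in COL5A2, -0.18 in COL4A1, -0.01 in COL4A4, -0.25 in COL25A1, -0.01 in LOXL1 and -0.25 in LOXL3, and in the difference of responses 0.28 in COL24A1 and 0.01 in COL4A5.

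Members lower with FLI1 shRNA numbered 0 with dim genes left out, with all rows and with trend and robust estimation. Quantile normalization again gave 1 member lower at 50 nM and 8 higher at 50 nM than at 5 nM, and the fit of only the compared arrays gave 1 lower in that contrast. The count of members with a lower FLI1 shRNA response than 5 nM response was 1 with all rows. It was 3 with dim genes left out, a cut that itself removed COL28A1, COL8A2, COL22A1 and COL4A5. Against untreated cells lacZ shRNA gave 2 higher members with dim genes left out, 1 with quantile normalization again and 1 with trend and robust estimation.

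With an array left out, members higher with FLI1 shRNA numbered 12 to 13 and lower 0 to 0, higher at 5 nM 2 to 10 and lower 3 to 5, higher at 50 nM 5 to 16, lower at 50 nM than at 5 nM 1 to 3 (1 without 50 nM replicate 1), and in the difference of responses lower 1 to 11.

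The replicate numbers are not said to mark a shared culture or day, and same-numbered arrays deviated together at over 0.1 in 6 of 15 pairs of groups, with correlations of -0.45 to 0.34. With the replicate block the FLI1 shRNA counts did not move by over 1.5 times, and the count of members with a lower FLI1 shRNA response than 5 nM response became 3. FLI1 and lacZ shRNA arrays of the same number correlated at -0.17, and crossing their numbers, chosen after seeing the data, gave 12 members higher and 1 lower.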
